A study of Mus musculus with 6 samples.

Results

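The genes described here are the sequence-specific splicing regulators of skeletal muscle: the SR proteins (Srsf genes), the heterogeneous nuclear ribonucleoproteins (Hnrnp genes), the muscleblind-like (Mbnl), CELF and RBFOX proteins, the RNA-binding proteins Rbm20 and Rbm24, and the polypyrimidine tract-binding proteins Ptbp1 and Ptbp2. They were picked by matching gene symbols, and 47 of the 24421 genes listed in the count files matched: 11 Srsf, 20 Hnrnp, 3 Mbnl, 6 Celf, 3 Rbfox, 2 Rbm and 2 Ptbp genes. The RNA came from the gastrocnemius/plantaris (GP) muscle of male mice, aged 5 months and taken 3 months after tamoxifen, and was read by bulk RNA-Seq. Per the paper, the floxed Net39 allele was made in B6C3F1 zygotes, founders were bred to C57BL/6N mice, and the line was crossed with HSA-CreERT2 mice. The Ctrl label names 3 mice that are Net39 fl/fl and carry no Cre, and the cKO label names 3 that are HSACreERT2;Net39 fl/fl. Both groups thus carry floxed Net39 alleles and received tamoxifen, and they differ in the Cre transgene. The human skeletal actin promoter drives that Cre in skeletal muscle, so Net39 alleles of other cells in the tissue are outside its reach. Each library comes from 1 mouse, and the libraries held 33860001 to 48839910 counts each.

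Net39, listed as Ppapdc3 and the gene targeted by the Cre, goes against the labels. It had 310, 321 and 217 counts where the label says Ctrl and 5365, 4340 and 6080 where it says cKO. After scaling by edgeR's TMM factors this was 7.20 ± 1.10 CPM (SD, n = 3; CPM is a count scaled to the size of its library) against 134 ± 19.7 CPM (SD, n = 3), an 18.6-fold difference in the opposite direction to a deletion. Whether the labels were exchanged is not known. Groups are therefore called by their labels throughout, fold changes divide the cKO-labelled by the Ctrl-labelled level, and a gene described as higher in the libraries labelled cKO is a gene that was higher where Net39 counts were high. The tissue's defining markers were abundant: the summed level of 6 skeletal muscle fibre genes (Acta1, Ckm, Des, Ttn, Mb and Ryr1) was 65573 to 66849 CPM at the Ctrl label and 69784 to 92761 CPM at the cKO label, with Ckm and Ryr1 passing as higher.

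Splicing regulators decide which exons of a pre-mRNA are kept. SR proteins mostly promote the use of exons they bind, hnRNP proteins often repress it, and MBNL, CELF and RBFOX proteins bind short motifs in or beside exons and act in either direction depending on where they sit. In striated muscle, rising MBNL activity and falling CELF activity after birth drive a shift from fetal to adult isoforms, and loss of MBNL function underlies missplicing in myotonic dystrophy. Counts per gene measure the amount of each regulator's mRNA and not the splicing of its targets.

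Among the 47 genes, Mbnl1 and Rbfox1 had the largest differences that passed the test. Both were higher in the libraries labelled cKO, by 1.91-fold and 1.82-fold, and both passed in each of the 15 alternative analyses. Of the 47 genes, 43 had enough counts to be tested and 10 passed an adjusted p of 0.05 (edgeR's quasi-likelihood test, adjusted over all 14180 genes tested). Mbnl1, Rbfox1, Celf2, Rbm20 and Hnrnpll had higher levels at the cKO label, whereas Rbfox2, Hnrnpa0, Hnrnpl, Hnrnph3 and Srsf10 had lower ones. This is 23.3% of the members tested, near the 24.4% of all genes tested that passed. The closeness rests on the fit: when libraries were scaled by total counts 21 of 43 members passed against 33.5% of all genes, and with the mouse number as a replicate block 3 of 43 against 13.4%. It was 2 of 44 against 11% without Ctrl 1, 2 of 44 against 12.6% without Ctrl 2, 3 of 44 against 12.4% without cKO 1 and 2 of 44 against 10.8% without cKO 3. Of all genes, 12.6% passed in the higher and 11.8% in the lower direction, against 5 of 43 members in each. At the added limit of a fold change over 2, none of the 43 members passed in edgeR's test, whereas 6.05% of all genes did. At an unadjusted p under 0.05, 18 of the 43 passed, as did 5501 of the 14180 genes, and DESeq2's Wald test also called 0 members with a fold change over 2. The median log2 fold change of the 43 was -0.02 (-0.02 over all genes tested), with 20 above 0 and 23 below. In 25 of the 43 (58.1%), the values of the labelled groups did not overlap, against 43.9% of all genes. Among genes with a mean of at least 10 CPM, the groups did not overlap for 64.1% of 39 members and 50.4% of all, and 25.6% of members and 30.7% of all passed.

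**Figure D1:**
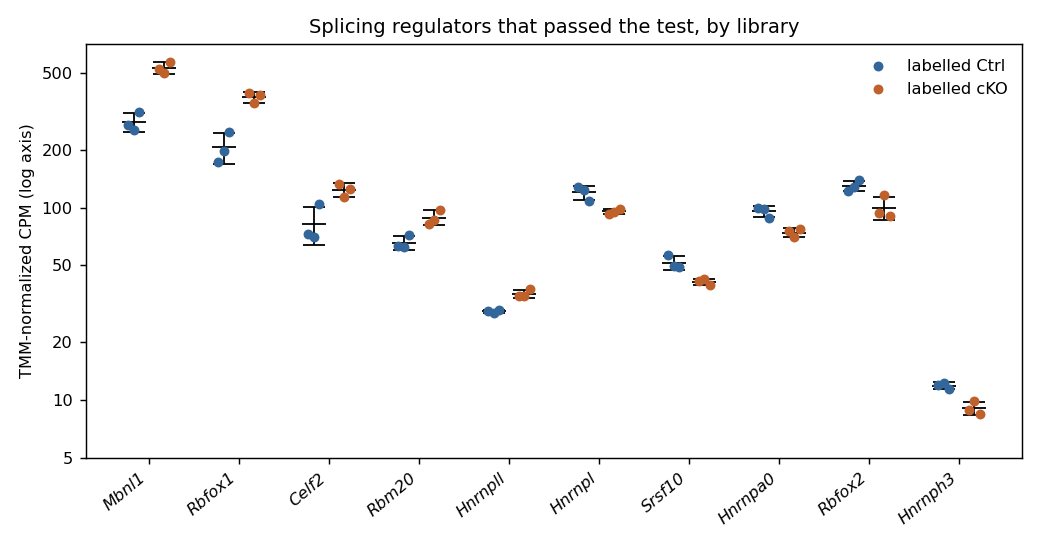
TMM-normalized CPM (log axis) of the 10 splicing regulators that passed the test, for each of the 6 libraries. Points are libraries, bars the mean ± SD of 3, and genes are ordered from the largest positive to the largest negative log2 fold change. The groups do not overlap for any of the 10, which is no added evidence, as the genes were picked by a test of these groups. Mbnl1 (254 to 315 against 499 to 574 CPM) and Rbfox1 (173 to 248 against 348 to 393 CPM) are the farthest apart.

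Mbnl1 encodes the main muscleblind protein of adult muscle and lies on chromosome 3 (chr3:60472830-60629750, plus strand, GRCm38). It had 267, 254 and 315 CPM with the Ctrl label and 529, 499 and 574 CPM with the cKO label. Every value of the second group exceeded every value of the first. The means were 279 ± 32.1 and 534 ± 38 CPM (SD, n = 3 each), and the log2 fold change of 0.94 (standard error 0.11, 95% interval 0.67 to 1.2) passed with an adjusted p of 0.00336. Its closest relative Mbnl2, on chromosome 14, behaved otherwise, with 366, 321 and 338 CPM against 407, 285 and 303 CPM. The groups overlapped, and the log2 fold change was -0.04 (95% interval -0.39 to 0.30, adjusted p = 0.854). Mbnl3, the family member linked to undifferentiated muscle cells, was near the limit of detection at 0.246 to 0.386 CPM in all 6 libraries. Because Mbnl1 and Mbnl2 were counted in the same libraries, their ratio does not depend on how libraries are scaled. There were 0.730, 0.791 and 0.933 Mbnl1 counts for each Mbnl2 count in the libraries labelled Ctrl and 1.3, 1.75 and 1.89 in those labelled cKO. Per kilobase of exon, Mbnl1 made up 34.3 ± 2.84% of the pair in the first group and 51.0 ± 4.97% in the second (SD, n = 3 each). By this measure Mbnl2 was the more abundant at the first label and the 2 were near equal at the second. Here and below, the length counts every base that is exon in any annotated transcript, 18717 for Mbnl1 and 11993 for Mbnl2. Their longest coding transcripts have 5655 and 4552 bases, so orders, shares and sums per kilobase depend on the length chosen.

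Rbfox1 and Rbfox2 encode proteins that recognise the same RNA motif, and Rbfox1 is the form restricted to muscle and nerve. Rbfox1, which spans 1526 kb of chromosome 16 (chr16:5885355-7411526, plus strand), had 173, 197 and 248 CPM at the Ctrl label and 393, 348 and 387 CPM at the cKO label. All 3 values at the second label were higher, with means of 206 ± 38 and 376 ± 24.4 CPM (SD, n = 3 each). The log2 fold change was 0.87, with a standard error of 0.14, a 95% interval of 0.54 to 1.2 and an adjusted p of 0.00745. Rbfox2, the widely expressed member on chromosome 15 (chr15:77078990-77307004, minus strand), moved in the opposite direction, from 122, 129 and 139 CPM to 93.7, 116 and 89.9 CPM. Its log2 fold change of -0.38 (standard error 0.11) passed narrowly, with an adjusted p of 0.0474, and that call was lost in 8 of the 15 alternative analyses. Within each library, Rbfox1 counts were 1.41, 1.54 and 1.79 times those of Rbfox2 at the Ctrl label and 4.19, 3.01 and 4.31 times at the cKO label. Per kilobase, Rbfox1 made up 74.4 ± 2.24% and 87.4 ± 2.28% of the pair (SD, n = 3 each). Rbfox3, a neuronal marker, had 0 to 5 counts per library and was not tested.

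Mbnl1 and Rbfox1 have more than 1 annotated start each, and the 250 bases before these starts differ in their content of CG dinucleotides, which are dense in promoters of widely expressed genes and sparse in many tissue-restricted ones. They are shown with every CG in capitals, 5′ to 3′ on the gene's strand, from RefSeq on GRCm38.p6. For contrast they are followed by the windows of Srsf10 and Hnrnpa0, a pair of widely expressed genes that were lower in the libraries labelled cKO and whose windows are the richest in CG among the 4 such genes listed. The windows lie at chr3:60472580-60472829 and chr3:60500929-60501178 (Mbnl1), chr16:5884543-5884792 and chr16:7069585-7069834 (Rbfox1), chr4:135855821-135856070 (Srsf10) and, on the minus strand, chr13:58128557-58128806 (Hnrnpa0).
Mbnl1, upstream start: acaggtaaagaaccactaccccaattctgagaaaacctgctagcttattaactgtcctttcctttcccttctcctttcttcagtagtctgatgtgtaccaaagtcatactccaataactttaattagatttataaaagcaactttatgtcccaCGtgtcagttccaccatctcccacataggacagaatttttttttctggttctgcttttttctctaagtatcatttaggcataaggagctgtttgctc
Mbnl1, downstream start: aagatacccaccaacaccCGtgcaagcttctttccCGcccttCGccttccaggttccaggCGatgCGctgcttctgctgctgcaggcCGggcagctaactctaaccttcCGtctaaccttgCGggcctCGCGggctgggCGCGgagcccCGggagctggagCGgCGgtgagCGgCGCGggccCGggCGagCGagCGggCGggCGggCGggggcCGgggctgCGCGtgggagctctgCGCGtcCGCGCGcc
Rbfox1, upstream start: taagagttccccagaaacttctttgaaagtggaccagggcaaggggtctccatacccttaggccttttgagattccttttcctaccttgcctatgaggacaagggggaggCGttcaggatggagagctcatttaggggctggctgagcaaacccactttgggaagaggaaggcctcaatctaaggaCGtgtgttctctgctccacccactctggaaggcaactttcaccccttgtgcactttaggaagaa
Rbfox1, downstream start: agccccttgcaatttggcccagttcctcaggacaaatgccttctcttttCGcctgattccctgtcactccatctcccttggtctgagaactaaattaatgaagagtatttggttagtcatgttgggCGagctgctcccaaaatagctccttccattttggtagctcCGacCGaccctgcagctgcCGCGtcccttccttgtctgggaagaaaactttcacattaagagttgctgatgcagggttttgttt
Srsf10: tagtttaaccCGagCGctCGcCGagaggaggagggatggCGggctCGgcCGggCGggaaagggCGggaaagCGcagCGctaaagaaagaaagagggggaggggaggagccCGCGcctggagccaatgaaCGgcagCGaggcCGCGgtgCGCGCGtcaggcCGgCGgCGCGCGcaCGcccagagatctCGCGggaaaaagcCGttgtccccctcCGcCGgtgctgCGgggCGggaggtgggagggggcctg
Hnrnpa0: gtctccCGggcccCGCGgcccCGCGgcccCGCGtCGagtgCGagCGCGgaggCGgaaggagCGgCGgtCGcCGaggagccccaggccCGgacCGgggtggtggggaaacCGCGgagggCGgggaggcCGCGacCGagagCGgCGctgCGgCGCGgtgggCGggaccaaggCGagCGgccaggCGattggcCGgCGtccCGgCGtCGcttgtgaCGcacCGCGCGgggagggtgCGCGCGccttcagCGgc

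The upstream Mbnl1 window holds 1 CG and the downstream one 33. The Rbfox1 windows hold 2 and 6, close to the median of 6 over all 32851 windows, while Srsf10 has 33 and Hnrnpa0 has 46. The contrast is not uniform, as Hnrnpl has 14, Hnrnph3 has 25 and 1 of the 5 windows of Celf2, a gene that was higher, has 43. Over the members that RefSeq's table lists (42 of 47 genes, 71 windows), the median was 18. It was 5 in the 9 windows of 3 genes that were higher in the libraries labelled cKO (Mbnl1, Rbfox1 and Celf2) and 29 in the 4 windows of 4 genes that were lower (Srsf10, Hnrnpa0, Hnrnpl and Hnrnph3), and 22 in the windows of members that did not pass. Counts per gene do not show which start was used. Some windows of 1 gene overlap, and these medians describe few genes. The MEF2 consensus, searched on both strands, occurred in 1 of the 71 windows, that of Srsf3, and in 2.92% of all windows. The E-box CAGCTG, a site of myogenic regulatory factors that reads the same on both strands, occurred in 15.5% of member windows, one of them the downstream Rbfox1 window, and in 13% of all windows. The genes that were higher also tended to be long: the 5 spanned a median of 190 kb (32.8 to 1526 kb), against 13.7 kb (2.68 to 228 kb) for the 5 that were lower and 12.7 kb (3.19 to 277 kb) for the 33 that did not pass.

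Of the CELF genes, whose proteins oppose MBNL at many exons, Celf2 was higher in the libraries labelled cKO. It lies on chromosome 2 (chr2:6539694-7509563, minus strand) and had 72.5, 70.6 and 104 CPM at the Ctrl label and 133, 113 and 124 CPM at the cKO label. The lowest value of the second group was only slightly above the highest of the first, which belonged to the library labelled Ctrl 3. Its log2 fold change of 0.59 (standard error 0.16) had an adjusted p of 0.0360, and the call was lost in 7 of 15 alternatives, 4 of them fits without 1 library, with adjusted p of 0.117 without Ctrl 1, 0.108 without Ctrl 2, 0.106 without cKO 1 and 0.0952 without cKO 3. Celf1, the best-studied antagonist of MBNL1, had 103, 114 and 125 CPM against 134, 140 and 132 CPM. These values did not overlap, but the log2 fold change of 0.25 (95% interval 0.03 to 0.46) did not pass (adjusted p = 0.0900). The ratio of Celf2 to Celf1 counts overlapped between the groups (0.619 to 0.828 against 0.809 to 0.994). The ratio of Mbnl1 to Celf1 counts did not, at 2.59, 2.23 and 2.51 against 3.94, 3.56 and 4.34. The neuronal members were barely counted in this tissue: Celf3 and Celf4 stayed at or under 0.932 CPM in every library, Celf5 had 7 to 12 counts and Celf6 at most 1 count, and the last 2 were not tested. The neuron markers Tubb3, Snap25, Syt1, Rbfox3 and Nefl summed to 0.145 to 0.500 CPM.

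Rbm20 and Rbm24 encode regulators of sarcomere gene splicing, Rbm20 being known for titin. Rbm20, on chromosome 19 (chr19:53677306-53867080, plus strand), had 62.8, 62.5 and 71.8 CPM against 82.1, 86.6 and 97.6 CPM. All values at the cKO label were higher. The log2 fold change of 0.43 (95% interval 0.21 to 0.66, standard error 0.10) passed with an adjusted p of 0.0193. The call was lost in 5 of the 15 alternatives, among them total counts in place of TMM factors, where it was 0.18 (adjusted p = 0.210), and the fits without Ctrl 1 (adjusted p = 0.0742), Ctrl 2 (0.0701) or cKO 3 (0.0698). Rbm24 had 261, 274 and 267 CPM against 250, 237 and 277 CPM. These groups overlapped, and the 95% interval of its log2 fold change was -0.28 to 0.13. Per kilobase of annotated exon, Rbm24 was the second most abundant member at the cKO label (72.9 CPM per kb, after Rbfox1 with 85.4). It was the most abundant at the Ctrl label (76.6, against 59.6 for Hnrnpa2b1 and 46.8 for Rbfox1). This order rests on the lengths used: Hnrnpa2b1 has 6584 exon bases but a longest coding transcript of 1728, and Rbm24 has 3491 and 3086.

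Ptbp1 and Ptbp2 are repressive regulators that replace one another during neuronal development, when Ptbp2 rises as Ptbp1 falls. In these muscles Ptbp1 had 23.0, 25.8 and 27.9 CPM against 18.1, 21.3 and 21.6 CPM, and Ptbp2 had 21.3, 23.1 and 25.5 CPM against 29.0, 27.2 and 30.0 CPM. Neither gene's groups overlapped, and neither passed edgeR's test: the log2 fold changes were -0.33 (95% interval -0.59 to -0.08, adjusted p = 0.0642) for Ptbp1 and 0.30 (95% interval 0.09 to 0.52, adjusted p = 0.0508) for Ptbp2. Of the 15 alternatives, 4 called Ptbp2 (lowest adjusted p = 0.0293, without Ctrl 3) and 1, total counts, called Ptbp1. The 2 genes moved in opposite directions, so their ratio within a library was bound to separate the groups more clearly than either gene did. The ratio adds no evidence to that of the single genes, and the pair was chosen with these values known. There were 0.928, 0.893 and 0.917 Ptbp2 counts per Ptbp1 count at the Ctrl label and 1.61, 1.28 and 1.39 at the cKO label. Ptbp1 shares exon bases with 3 other annotated genes on the opposite strand, and the use of strand in counting is not given in the sources used here.

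**Figure D2:**
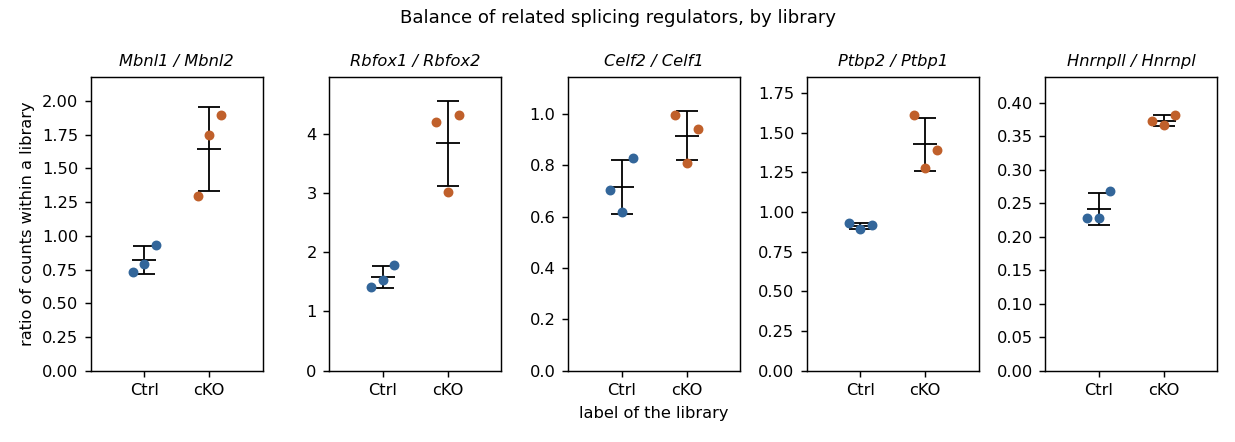
Ratio of the counts of a pair of related splicing regulators within each library, for 5 pairs, with the mean ± SD of 3 libraries per label. The vertical axes start at 0 and differ between panels. The pairs were chosen with the values known. In Rbfox1/Rbfox2, Ptbp2/Ptbp1 and Hnrnpll/Hnrnpl the genes moved in opposite directions, so these ratios were bound to be apart. The labelled groups are apart for Mbnl1/Mbnl2, Rbfox1/Rbfox2, Ptbp2/Ptbp1 and Hnrnpll/Hnrnpl and overlap for Celf2/Celf1 (0.619 to 0.828 against 0.809 to 0.994).

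The SR proteins, which carry a domain rich in arginine and serine and help define exons, had 1 gene of 10 tested that passed, Srsf10, against 24.4% of all genes. Under TMM scaling the values of the other 9 overlapped between the groups, and over all genes 43.9% did not overlap. With total counts Srsf1, Srsf2, Srsf3, Srsf6, Srsf7 and Srsf11 passed as lower too, where 33.5% of all genes passed. Srsf10, which encodes a splicing repressor activated by loss of its phosphate groups, lies on chromosome 4 (chr4:135855747-135869908, plus strand). It had 56.6, 49.5 and 49.1 CPM against 41.3, 42.5 and 39.4 CPM, which gave -0.33 on the log2 scale (adjusted p = 0.0263, standard error 0.08), and the call was lost in 6 of 15 alternatives. The other 9 had log2 fold changes of -0.27 (Srsf3) to 0.20 (Srsf5), and their 95% intervals lay between -0.57 and 0.48. Per kilobase, Srsf2 (42.2 CPM per kb at the Ctrl label), Srsf5 (29.9) and Srsf1 (21.6) were the most abundant, and the same 3 led at the cKO label in the same order (38.3, 34.4 and 19.8). Srsf12 had 0 or 1 count in each library. Closely matching copies elsewhere in the annotation, with at least 97% identity over at least 75 bases, covered 49.5% of the Srsf3 transcript, 51.7% of Srsf5 and 14.6% of Srsf10, so their counts are less certain than those of Srsf1 or Srsf2, for which no such copy was found. Exon bases of Srsf4 (43.0%) and Srsf2 overlap other genes on the opposite strand.

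All 20 Hnrnp genes were tested and 4 passed, 20% against 24.4% of all genes. With total counts, where 33.5% of all genes passed, Hnrnpc, Hnrnpf, Hnrnph2, Hnrnpk, Hnrnpr and Hnrnpu passed as lower too. Hnrnpll then lost its call, so none of the family passed as higher. Hnrnpa0, which encodes a small AU-rich-element-binding protein from a locus as short as its transcript, 2678 bases on chromosome 13 (chr13:58125879-58128556, minus strand), had 99.6, 98.6 and 88.1 CPM against 75.3, 70.0 and 77.3 CPM (-0.36 on the log2 scale, adjusted p = 0.0204, standard error 0.08). Hnrnpl and its relative Hnrnpll, which bind CA-rich RNA, moved in opposite directions. Hnrnpl (chr7:28808541-28822266, plus strand) had 127, 124 and 109 CPM against 92.9, 95 and 98.7 CPM, which gave -0.33 on the log2 scale (adjusted p = 0.0315, standard error 0.08). Hnrnpll (chr17:80029487-80062334, minus strand) had 29.0, 28.4 and 29.2 CPM against 34.7, 34.8 and 37.6 CPM, which gave 0.31 on the log2 scale (adjusted p = 0.0200, standard error 0.07). Hnrnpll counts were 0.228, 0.229 and 0.269 of the Hnrnpl counts at the first label and 0.373, 0.366 and 0.381 at the second. Hnrnph3 (chr10:63014664-63024217, minus strand), a member of the hnRNP H/F group that binds G-rich RNA, had 11.9, 12.3 and 11.3 CPM against 8.81, 9.89 and 8.48 CPM (-0.39 on the log2 scale, adjusted p = 0.0293, standard error 0.10). These 4 calls were each lost in 6 or 7 of the 15 alternatives. For 12 of the 16 Hnrnp genes that did not pass, the labelled groups did not overlap either under TMM scaling, 6 in each direction, with log2 fold changes between -0.21 and 0.27. Over the whole family the groups did not overlap for 16 of 20 genes, against 43.9% of all genes tested. Hnrnpa2b1, which encodes a binder of pre-mRNA and transported mRNA, shows the scale: 398, 387 and 393 CPM against 425, 429 and 431 CPM (log2 fold change 0.13, adjusted p = 0.257). Per kilobase, Hnrnpa2b1 (59.6 CPM per kb at the Ctrl label), Hnrnpab (53.6) and Hnrnpa0 (35.6) were the most abundant. Hnrnpa1 was counted at 7.19 to 8.93 CPM. Matching copies in 8 annotated pseudogenes covered 58.5% of its transcript, and such copies also covered 59.5% of Hnrnpf and 46.4% of Hnrnpk, so the levels of these genes are uncertain. Of the 4 Hnrnp genes that passed, none had such a copy, and Hnrnph3 shares 115 exon bases with Rufy2 on the opposite strand.

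**Figure D3:**
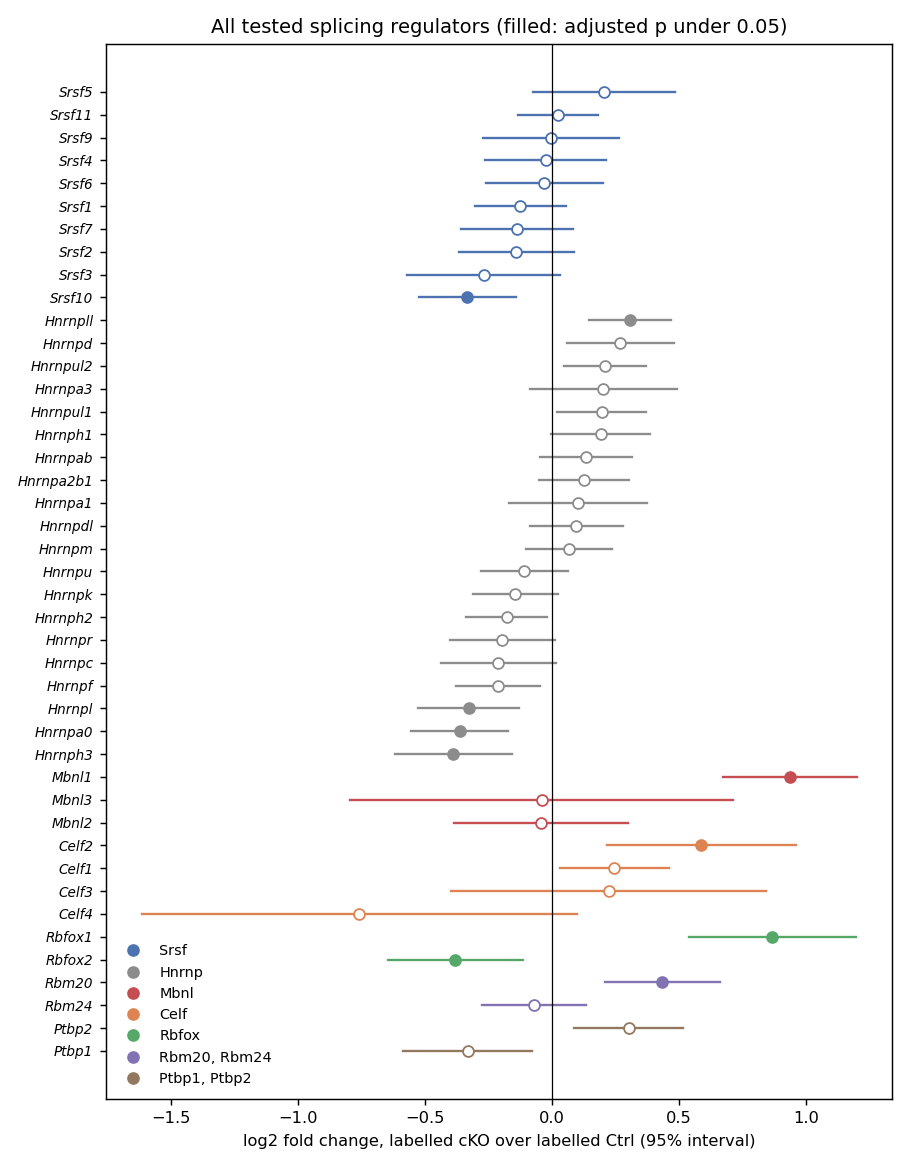
Log2 fold change (labelled cKO over labelled Ctrl) with its 95% interval for the 43 splicing regulators tested, grouped by family. Filled points passed an adjusted p of 0.05. Mbnl1 (0.94) and Rbfox1 (0.87) have the highest values, and the Srsf and Hnrnp genes lie between -0.39 and 0.31.

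Summed per kilobase over a family, Rbfox mRNA was 54.4, 60.7 and 73.3 CPM per kb at the Ctrl label and 101, 93.3 and 99.1 at the cKO label, and Mbnl mRNA was 44.9, 40.4 and 45.1 against 62.3, 50.4 and 56.0. Under TMM scaling neither sum overlapped between groups, and the Celf sum did not either (15.3 to 19.1 against 20.7 to 21.2). With total counts, a comparison added after the data were seen, the Rbfox sum still did not overlap (60.6 to 79.2 against 87.1 to 91.7), while the Mbnl (43.9 to 49.9 against 49.5 to 53.8) and Celf sums (17 to 20.6 against 18.3 to 20.8) did. The Hnrnp sum was nearly the same in every library under TMM scaling, 382 ± 0.397 against 383 ± 5.76 CPM per kb (SD, n = 3 each), and the Srsf sum overlapped, 163 ± 2.04 against 157 ± 13.5. With total counts both were lower at every library labelled cKO (Hnrnp 413 to 425 against 335 to 370, Srsf 175 to 184 against 133 to 155).

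The scaling of the libraries bears on all of these directions. TMM factors were 1.08 to 1.11 at the Ctrl label and 0.865 to 0.983 at the cKO label, and with total counts in their place the median over all genes tested moved from -0.02 to -0.27 on the log2 scale. Of the 10 genes, 7 kept their call with total counts: Mbnl1 (log2 fold change 0.68), Rbfox1 (0.61), Rbfox2 (-0.63), Hnrnpa0 (-0.62), Hnrnph3 (-0.64), Srsf10 (-0.59) and Hnrnpl (-0.58). Celf2 (0.33), Rbm20 (0.18) and Hnrnpll (0.05) kept their direction without passing. A further 14 members then passed as lower in the libraries labelled cKO. With total counts 4074 of all 14180 genes also passed as lower, and 33.5% passed in either direction.

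**Figure D4:**
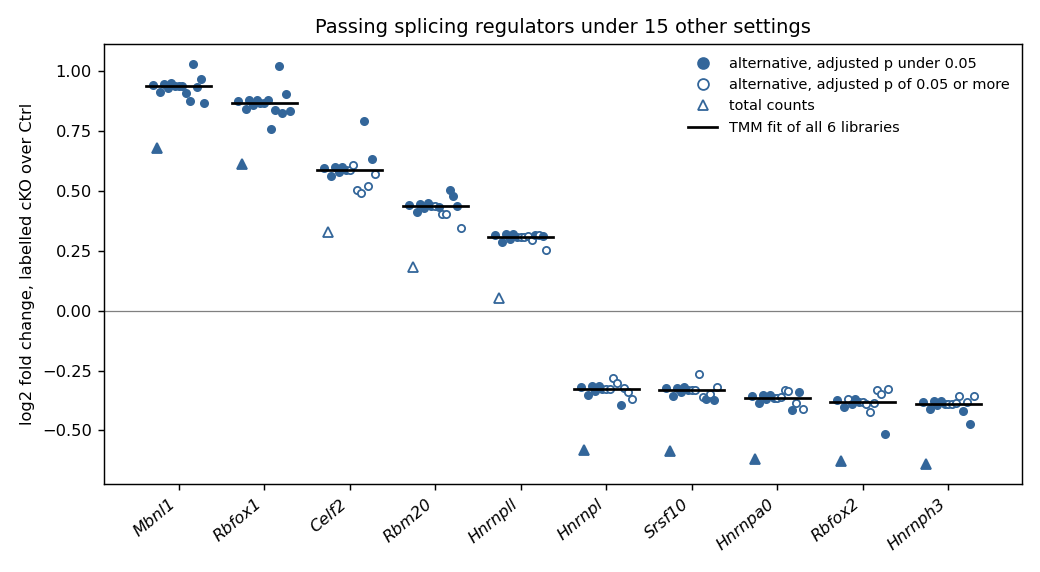
Log2 fold change of the 10 passing splicing regulators in the TMM fit of all 6 libraries (line) and under the 15 alternatives (points; filled where the adjusted p was under 0.05, triangles for total counts). Mbnl1 (0.68 to 1.03) and Rbfox1 (0.61 to 1.02) are filled throughout, while each of the other 8 has open points.

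The other genes of the splicing machinery were taken from lists written by hand, and their counts stand against the 24.4% of all genes that passed. Of 9 protein kinases that phosphorylate SR proteins, none passed (0 genes, edgeR's quasi-likelihood test). At an unadjusted p under 0.05, 1 of the 9 did, against 5501 of all 14180 genes, and DESeq2's Wald test called 1. The median log2 fold change was 0.07. Srpk3, the muscle-restricted SR protein kinase, had 53.4, 62.8 and 60.7 CPM against 58.1, 50 and 55.6 CPM, with overlapping groups and an interval of -0.33 to 0.11. Of 46 core spliceosome genes, 2 passed (4.35%, median log2 fold change 0.06): Sf3a1, a component of the U2 particle, was lower (-0.40, adjusted p = 0.00787) and Cwc22, which links splicing to the exon junction complex, was higher (0.36, adjusted p = 0.0278). The call of Cwc22 was lost in 8 of the 15 alternatives and that of Sf3a1 in 1. Of 39 other splicing regulators tested, 5 passed (12.8%, median -0.11). Khdrbs3, which encodes the STAR-family regulator SLM2, was the only one past a 2-fold difference, with 58.0, 48.7 and 38.7 CPM against 13.9, 23.9 and 14.2 CPM. All its values at the cKO label were lower, by 2.79-fold (-1.48 on the log2 scale, adjusted p = 0.00753, standard error 0.24). Tra2a, an SR-like exon activator, was lower too, with 62.5, 48.0 and 50.2 CPM against 27.9, 32.9 and 28.5 CPM (log2 fold change -0.85, adjusted p = 0.00526). Nova2, best known from neurons, was also lower (-0.61, adjusted p = 0.0113), and Syncrip (0.35, adjusted p = 0.0361) and Zranb2 (0.32, adjusted p = 0.0289) were higher. Of the 15 alternatives, 9 lost the call of Syncrip, 7 that of Zranb2 and none those of Khdrbs3, Tra2a or Nova2. Qk, a regulator abundant in muscle, had 341, 280 and 312 CPM against 233, 312 and 248 CPM, with an adjusted p of 0.240, and Ptbp3, the third PTB gene, had a log2 fold change of -0.24 with an adjusted p of 0.237.

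Genes whose transcripts these regulators are known to splice in muscle were also compared at the level of the whole gene. Of 28, 10 were higher and 3 lower in the libraries labelled cKO, 46.4% in all, with a median log2 fold change of 0.19. Of all genes tested 24.4% passed, and 30.7% of those with a mean of at least 10 CPM. The list was written by hand with earlier results known. The calls became 5 with the replicate block, against 13.4% of all genes, and 5 to 15 without 1 library, against 10.8 to 24.8%. Past a 2-fold difference were Tpm1, a tropomyosin gene (7748 against 19671 CPM on average, log2 fold change 1.34, adjusted p = 0.00334), Atp2a1, the calcium pump of fast fibres (1.02, adjusted p = 0.00918), and, in the other direction, Camk2d, a calcium-dependent kinase (-1.22, adjusted p = 0.00524). Tpm1 and Camk2d passed in all 15 alternatives. The call of Atp2a1 was lost in edgeR's test with the replicate block (adjusted p = 0.0544), and its log2 fold change was 0.76 with total counts. All these values are amounts of all isoforms together, and several of the genes belong to one fibre type.

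Fibre-type and other cell markers moved with the labelled groups too. Fast fibre markers (Myh4, Actn3, Mybpc2, Pvalb, Tnnt3, Tnni2 and Myl1) had log2 fold changes above 0 for 7 of 7 genes, 6 of which passed. They summed to 43155, 59650 and 77610 CPM against 153756, 114653 and 141362 CPM. Slow fibre markers (Myh7, Tnnt1, Tnni1, Tnnc1, Myl2, Myl3 and Atp2a2) had values below 0 for 7 of 7, 3 of which passed, and summed to 13251, 7888 and 7931 CPM against 1781, 3443 and 389 CPM. Immune markers summed to 46.8 to 58.1 CPM at the Ctrl label and 25.3 to 38.2 CPM at the cKO label, with log2 fold changes below 0 for 5 of 5 genes, 3 of which passed. Pericyte and smooth muscle markers were below 0 for 5 of 5, 2 of which passed (412 to 427 against 329 to 354 CPM), and Schwann cell markers for 5 of 5, 0 of which passed in edgeR's test and 2 at an unadjusted p under 0.05 (88.1 to 138 against 46.2 to 88.6 CPM). Satellite cell markers summed to 23.0 to 23.6 against 27.8 to 34.1 CPM. Only Cdh15 of these 5 passed (0.52 on the log2 scale, adjusted p = 0.0107), and the other 4, Pax7 among them (-0.10, adjusted p = 0.707), overlapped between the groups. Endothelial (326 to 340 against 300 to 337 CPM), fibroblast (984 to 1178 against 650 to 1199 CPM) and adipocyte sums (15.1 to 49.3 against 17.7 to 52.7 CPM) overlapped. Of the 5 fibroblast markers, 2 nonetheless passed as lower: Lum (-0.72 on the log2 scale, adjusted p = 0.0145) and Col3a1 (-1.06, adjusted p = 0.0281). Erythroid markers could not be read, as 6 of 7, the globin genes, were listed at 0 in every library. The part of fibre types and of other cells in the differences of splicing regulators was not tested, and in whole muscle fewer cells of a type and less RNA per cell cannot be told apart.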

How the data were processed

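The 6 bulk RNA-Seq libraries of GP muscle, 3 for each label, were compared. Per the submitters' processing notes and the methods, the authors used FastQC 0.11.8 for read quality, Trimmomatic 0.39 for trimming and HISAT2 2.1.0 for alignment (mm10), and deposited raw counts per gene from featureCounts 1.6.2. The annotation and the use of strand are not given in the sources used here. Members were found by symbol in the 24421 genes listed, and 18918 genes had a count. The members and lists were chosen with earlier results of these data known.

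Counts were fitted in R 4.3.3 with edgeR 4.0.16 (TMM factors, filterByExpr, glmQLFit, glmQLFTest, Benjamini-Hochberg adjustment over 14180 genes), and a gene passed at an adjusted p under 0.05. The study's limit of a fold change over 2 was applied as a second rule. DESeq2 1.42.0 was an alternative. The fits were first tested on simulated data. Standard errors were derived from the F statistic. Replicate mice differed by more than counting noise (chi-square per degree of freedom 29.5 to 101).

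Named were all members that passed, all Mbnl, Celf, Rbfox, Rbm and Ptbp members, untested members, passing Srsf and Hnrnp members, the 3 highest of those families per kilobase, and listed genes past a 2-fold change or chosen by name. Srsf3, Srsf4, Srsf6, Srsf7, Srsf11, Hnrnpa1, Hnrnpc, Hnrnpf, Hnrnph2, Hnrnpk, Hnrnpr, Hnrnpu, Tra2a, Nova2, Syncrip, Zranb2, Sf3a1, Cwc22 and single cell-type markers were named after their values were seen. The pairs of related genes were chosen with the values known. Lengths, positions and overlaps come from GENCODE M21 (GRCm38, also called mm10). Near-identical copies were found with megablast among its transcripts, and windows before gene starts come from RefSeq.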

Additional observations from a re-analysis of the deposited data

How the results depend on the processing

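The 15 alternatives gave 643 values for the 43 members tested. Of these, 570 kept direction and side of the threshold or, where no fit called the gene, changed sign without passing. Calls were lost in 52, gained in 20, 13 of them with total counts, and turned in 1, where Srsf11 passed at -0.233 with total counts. Mbnl1 and Rbfox1 passed throughout. Of the other 8 calls, Rbm20 was lost without Ctrl 1, Ctrl 2 or cKO 3, and the rest without any of these or cKO 1. Rbfox2 was also lost without Ctrl 3 and Hnrnpl without cKO 2. Over all genes tested, 33.5% were called with total counts, 10% with glmTreat, 13.4% with the replicate block and 10.8 to 24.8% without 1 library, against 24.4%. The 5 members higher in the libraries labelled cKO became 2 with total counts, 2 with glmTreat against a fold change of 1.2, and 2 to 7 without 1 library. The 5 lower became 19 with total counts, 0 with glmTreat, and 0 to 5 without 1 library. The libraries labelled Ctrl 1, Ctrl 2, cKO 1 and cKO 3 each left 0 lower when left out, and 3454 calls over all genes became 1560 to 1820 without one of them. Past a 2-fold difference, 0 members were higher and 2 were without Ctrl 3 (Mbnl1 1.03, Rbfox1 1.02), so without 1 library this count was 0 to 2. The median of members moved from -0.0245 to -0.283 with total counts, where 14.2% of calls over all genes were in the higher direction against 51.7% with TMM factors.

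Against the same shares over all genes, called SR protein kinases were 4 with total counts and 1 with DESeq2's Wald test (0 with edgeR). Other splicing regulators called were 20 with total counts and 3 with glmTreat (5 with edgeR), and 3 to 7 without 1 library. Core spliceosome genes called were 17 with total counts and 0 with glmTreat (2 with edgeR), and 1 to 6 without 1 library, the highest without cKO 2. Splicing targets called were 5 with glmTreat (13 with edgeR), and 5 to 15 without 1 library.

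With the mouse number as a replicate block, 3 members were higher (Mbnl1, Rbfox1 and Rbm20) and 0 lower, and calls were 3 among other splicing regulators, 1 in the core spliceosome and 5 among splicing targets. Same-numbered mice did not deviate together (correlations of 0.084, -0.21 and -0.002), not every library correlated best with its own number, and the labels do not say that numbers mark a shared litter or day. No search for outlying libraries was made, since each label has 3. Depth limits the genes under 1 CPM, for which the 95% interval of the log2 fold change ran from -1.61 to 0.10 for Celf4, -0.40 to 0.84 for Celf3 and -0.80 to 0.71 for Mbnl3.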
